A study of Danio rerio with 4 samples.

Results

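Equal-rank regions are stretches of open chromatin of the zebrafish embryo that held nearly the same percentile among the peaks of each list, in periderm and in the remaining cells. They were chosen by the value of each peak. The peaks of 4 libraries were merged into 693918 regions, and the value of every peak was turned into a percentile within its own list. A region was kept if it held a peak in all 4 lists, spanned less than 1000 bp, had no percentile of 95 or higher, and had a highest percentile no more than 10 points above the lowest. This left 8339 regions, 1.20% of all regions. The lists differ in length, so equal percentiles are not equal rank numbers. With all lists cut to equal numbers of the strongest peaks and percentiles taken anew, 2920 of the 8339 regions (35.0%) met the rule again. Because the rule used the peak values, levels and differences between libraries are descriptions here and were not tested.

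The study used embryos of the transgenic line Tg(krt4:GFP) at the 4-somite stage, in which the krt4 promoter drives GFP in the periderm. The GFP-positive group holds 2 libraries from sorted GFP-positive cells (labelled periderm), and the GFP-negative group holds 2 libraries from sorted GFP-negative cells of the same transgenic embryos (labelled non-periderm). Each library was made by ATAC-seq from 50000 cells, and the embryos, all carrying the transgene, came from 2 independent incrosses with no further treatment. The GFP-negative fraction mixes all other tissues, and a peak open in fewer cells of a fraction cannot be told apart from one less open in each cell.

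ATAC-seq reads open chromatin through the Tn5 transposase, which cuts where DNA is not wrapped on a nucleosome. Fragments shorter than a nucleosome mark nucleosome-free regions (NFRs), found at promoters, enhancers and insulators. Promoters of genes that every cell uses, and sites held by widely expressed factors such as CTCF, are typically open in most cell types, while many distal enhancers are open in one lineage only. The periderm is the outermost epithelial layer of the embryo, formed by the enveloping layer, and krt4 encodes a keratin of that layer. No annotation of the genome build was used, so the regions are given by position alone, without a gene, promoter or sequence.

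List length was 336052 and 190059 for GFP-positive replicates 1 and 2, and 455867 and 333588 for GFP-negative replicates 1 and 2. All peak values were whole multiples of 1 step per list, as the fold enrichment of the peak caller over a constant background gives, so each could be read as a pileup, the number of extended tags at the summit. The steps imply 24915279 and 29455697 tags in the GFP-positive libraries, and 42446894 and 37589488 tags in the GFP-negative libraries. Both GFP-negative libraries were thus deeper. The shortest list, of GFP-positive replicate 2, was not the shallowest library.

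Most regions were removed by the first part of the rule. Of all regions, 110783 (16.0%) held a peak in all 4 lists. Of these, 109824 were narrower than 1000 bp, and 85254 of those had all percentiles under 95. Within that set, 8339 regions met the limit of 10 points, which is 9.78% of it. The other 76915, called unequal-rank regions here, are the set against which equal-rank regions are compared below. They share the presence in all lists, the width limit and the percentile limit. Of the parts of the rule, the range limit alone separates the sets. The sets also differed in level. The median of the mean percentile over the 4 libraries was 88.7 for equal-rank and 67.4 for unequal-rank regions.

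The values just inside and just outside each limit lay close together. The largest ranges kept were 9.9964 points, for chromosome 1 from 56487045 to 56487160 and chromosome 5 from 2959365 to 2959717. The smallest range left out was 10.002 points, at chromosome 6 from 7976180 to 7976331 and chromosome 8 from 964710 to 964885. The widest regions kept spanned 991 bp (chromosome 7, 6808126 to 6809116) and 990 bp (chromosome 13, 222191 to 223180), and the narrowest left out for their width alone, on chromosomes 1 and 9, spanned 1004 bp. The width limit alone removed only 38 regions. The percentile limit alone removed 17951 narrow regions with a range of at most 10 points, more than were kept. Near that limit, chromosome 3 from 25593389 to 25593803 was kept with a highest percentile of 94.997, and chromosome 1 from 209131 to 209470 was left out with 95.020.

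Most equal-rank regions ranked high in every library. The median percentile was 89.3 and 86.0 in GFP-positive replicates 1 and 2, and 90.5 and 87.8 in GFP-negative replicates 1 and 2. For unequal-rank regions it was 74.8 and 52.9 in the GFP-positive libraries, and 81.7 and 73.9 in the GFP-negative libraries. The median of the mean percentile over the 4 libraries was 88.7 for equal-rank and 67.4 for unequal-rank regions. Equal-rank regions thus stood higher in each of the 4 libraries. The gap was smallest in GFP-negative replicate 1 and largest in GFP-positive replicate 2, where unequal-rank regions ranked lowest. The rule used these percentiles, and 1 tag moves a percentile less high in the lists, as given below. This contrast in level is therefore not independent of the rule.

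**Figure D1:**
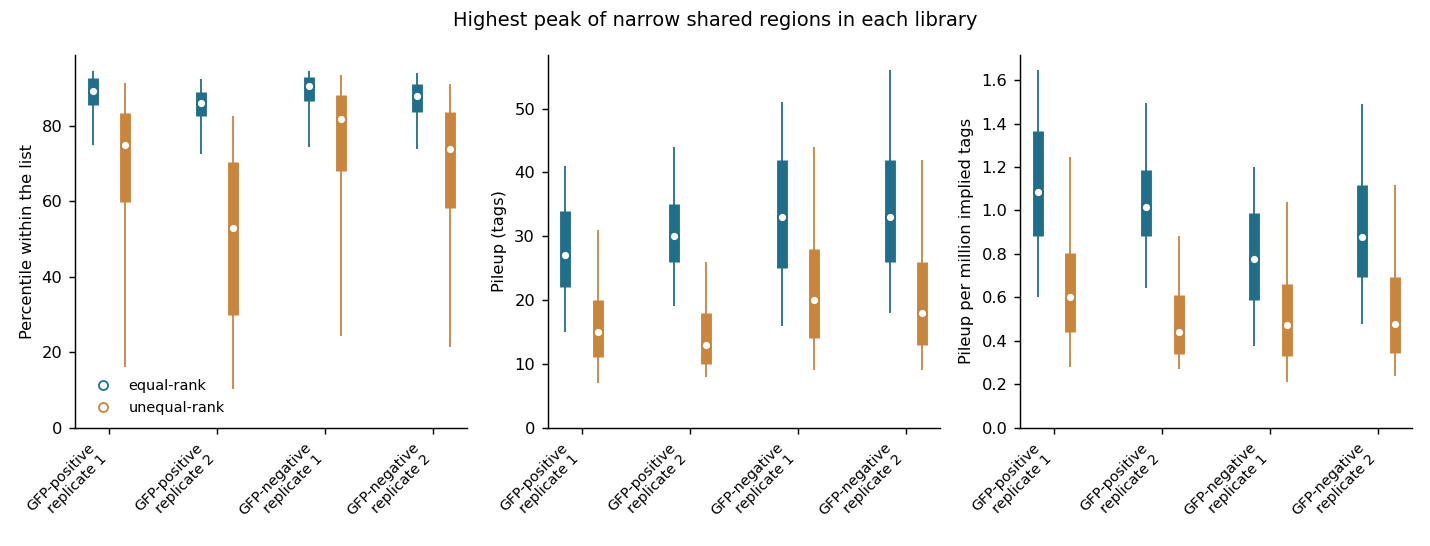
Percentile within the list, pileup in tags, and pileup per 1000000 implied tags (vertical axes) of the highest peak in each of the 4 libraries (horizontal axis), for 8339 equal-rank and 76915 unequal-rank regions. Circles are medians over regions, thick bars span the middle 50% and thin lines the middle 90%; median pileups of equal-rank regions were 27 and 30 tags in GFP-positive libraries and 33 and 33 tags in GFP-negative libraries.

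The level at which rank was equal was narrow. Of the 8339 regions, 7407 (88.8%) had a mean percentile of 80 or higher, 847 lay between 50 and 80, and 85 (1.02%) lay under 50. The share of tested regions that met the range limit was 88.0% at a mean percentile of 90 to 95 (2908 of 3304), 36.0% at 85 to 90 (3345 of 9286) and 11.2% at 80 to 85 (1154 of 10316). It was 4.61% at 75 to 80 and between 0.204% and 4.55% in every bin of 5 points from 10 to 75. Under 10 there were few tested regions, with 5 of 11 equal-rank at 5 to 10 (45.5%) and 1 of 1 at 0 to 5. At 90 and above the limit of 95 leaves little room for a range over 10 points. The rule itself therefore favours a high share in the last bin.

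**Figure D2:**
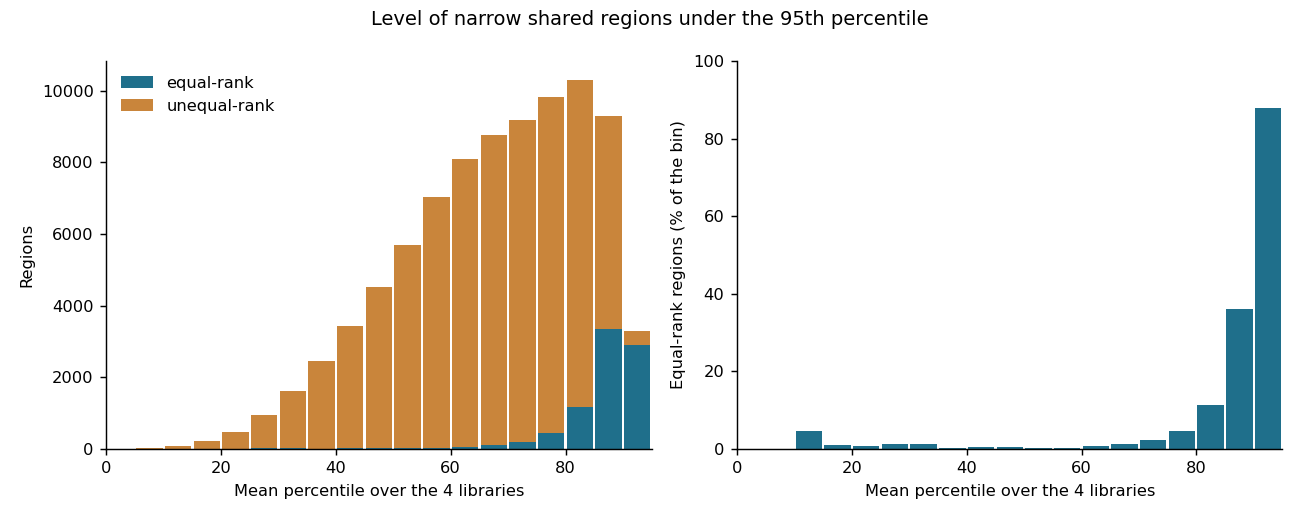
Left, number of narrow shared regions (vertical axis) by mean percentile over the 4 libraries in bins of 5 points (horizontal axis), with equal-rank regions at the base of each bar and unequal-rank regions above. Right, equal-rank regions as a percent of each bin; the 12 regions under a mean percentile of 10 are not drawn at right, and the share reaches 88.0% in the last bin.

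The values are whole tags, and this sets what a percentile can resolve. Near the median equal-rank region, 1 tag moved the percentile by 0.566 and 0.670 points in the GFP-positive lists, and by 0.354 and 0.451 points in the GFP-negative lists. Low in the lists a single tag was worth far more. In GFP-positive replicate 1, the largest step, by 1 tag, went over 13.7 points, between percentiles 16.2 and 29.9. The largest step was 10.3 points in GFP-positive replicate 2 and 12.6 points in GFP-negative replicate 1. A region at such a level could be lost by a change of 1 tag in 1 list.

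Counting error alone spans about as many points as the rule allows. For the median pileup, 95% exact Poisson intervals ran from 17.8 to 39.3 tags in GFP-positive replicate 1 and from 20.2 to 42.8 tags in GFP-positive replicate 2. They ran from 22.7 to 46.3 tags in both GFP-negative libraries. Placed on the percentile scale of each list, these intervals covered 13.9 and 17.2 points in the GFP-positive libraries, and 9.28 and 11.6 points in the GFP-negative libraries. Equal rank at this depth is therefore a statement about these lists. It does not separate a region of equal openness from one whose openness differs by as much as these intervals allow. The intervals cover counting error only.

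Equal rank was not equal fold. The highest of the 4 fold values was a median of 1.43 times the lowest, with a middle 90% of 1.15 to 1.91 times and a maximum of 2.78 times. In 5179 regions (62.1%) this ratio was at most 1.5, and in 239 (2.87%) it was over 2. In unequal-rank regions the median ratio was 1.83, and 21.2% were at or under 1.5.

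The direction between the sorted populations depended on the scale. By percentile, the mean of the GFP-positive libraries was above that of the GFP-negative libraries in 2745 regions (32.9%), with a median difference of -1.42 points. By fold, it was higher in GFP-positive libraries in 5503 regions (66.0%), with a median log2 difference of 0.13. By pileup per 1000000 implied tags, it was higher in GFP-positive libraries in 7429 regions (89.1%), with a median log2 difference of 0.37. In unequal-rank regions the mean was higher in GFP-positive libraries in 24.1% by percentile, 42.7% by fold and 59.0% by scaled pileup. Over all levels, most regions of both sets were thus lower in GFP-positive libraries by rank and higher by scaled pileup. Equal-rank regions were less often lower by rank. At a mean percentile of 80 to under 90, the shares higher in GFP-positive libraries by scaled pileup were 92.0% of equal-rank and 50.3% of unequal-rank regions. By fold they were 69.7% and 32.5%, and by percentile 33.8% and 17.7%. Depth and list length differ between the libraries, and the part of either was not tested.

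A similar contrast appeared in the library medians. In GFP-positive replicates 1 and 2 the median pileup was 27 and 30 tags, and in both GFP-negative libraries it was 33 tags. Scaled per 1000000 implied tags, the medians were 1.08 and 1.02 in GFP-positive libraries, and 0.777 and 0.878 in GFP-negative libraries. The library medians of the groups did not overlap on either scale, in opposite directions. In unequal-rank regions the median pileups were 15 and 13 tags in GFP-positive libraries, and 20 and 18 tags in GFP-negative libraries. These did not overlap either, in the same direction as in equal-rank regions. The scaled medians of unequal-rank regions did overlap, with 0.602 and 0.441 in GFP-positive libraries, and 0.471 and 0.479 in GFP-negative libraries. Because the rule used these values, none of these differences was tested.

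Within each group, replicate 1 ranked higher than replicate 2. The median percentile difference, replicate 1 minus replicate 2, was 3.19 points in GFP-positive and 1.86 points in GFP-negative libraries. GFP-positive replicate 2 held the lowest of the 4 percentiles in 4476 equal-rank regions (53.7%) and the highest in 532 (6.38%). GFP-negative replicate 1, the longest list, held the highest in 3724 (44.7%) and the lowest in 701 (8.41%). The part of list length in this order was not tested, and the order was not recomputed with lists of equal length.

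The peaks of the 4 libraries lay on top of each other. In 8155 equal-rank regions (97.8%) at least 1 base was in the highest peak of all 4 lists, with a median of 125 bases in common. The midpoints of the 4 peaks lay within a median of 34 bp, with a middle 50% of 20 to 62 bp. In 6988 regions (83.8%) each list had exactly 1 peak. The merged width had a median of 235 bp, a lowest value of 72 bp, and was under 500 bp in 7621 regions (91.4%). Over all levels, unequal-rank regions had a median of 212 bp and were under 500 bp in 95.2%. A smaller share of the equal-rank regions was thus that narrow, but not at the same level, as given below.

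Compared at the same level, this alignment was not much different in unequal-rank regions. Over all levels, 90.2% of unequal-rank regions had a base in all 4 highest peaks, with midpoints within a median of 46.5 bp. Among regions with a mean percentile of 80 to under 90, the shares were 98.1% of 4499 equal-rank and 97.8% of 15103 unequal-rank regions, and the midpoint distances were 34 and 37 bp. The share with exactly 1 peak in each list was 84.5% and 83.0% at that level. The median merged width there was 231 bp in equal-rank and 246 bp in unequal-rank regions, with 92.0% and 90.6% under 500 bp. The direction of the width contrast was thus reversed at that level. These values pool the 4 libraries, so no error between libraries can be given.

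Width was then compared within each library. The rule limited only the merged width, alike in both sets, but peak width is tied to the peak values that the rule used. The comparison over all levels is therefore not independent of the rule. The median width of the highest peak was 174 and 152 bp in equal-rank regions in GFP-positive replicates 1 and 2, against 136 and 108 bp in unequal-rank regions. In GFP-negative replicates 1 and 2 it was 189 and 172 bp in equal-rank regions, against 157 and 133 bp in unequal-rank regions. Peaks were wider in equal-rank regions in 4 of 4 libraries, by 38.2 ± 4.92 bp (SD, n = 4; two-sided exact sign-flip permutation test, p = 0.125). This is the smallest p that 4 libraries allow, so the test cannot pass 0.05. Both fractions were sorted from the same embryos of 2 incrosses, so the 4 libraries are not 4 independent samples. The 4 differences, here and for distance below, also rest on the same regions, which were chosen from all 4 lists together. The p-values here reflect only how far the differences of the 4 libraries agree in sign, given their sizes. At the same level the direction turned. With a mean percentile of 80 to under 90 the difference was -6.25 ± 7.41 bp (SD, n = 4; exact permutation p = 0.25), with narrower peaks in equal-rank regions in 3 of 4 libraries. Even there the sets differed in level, with a median mean percentile of 87.3 in equal-rank and 84.0 in unequal-rank regions.

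The distance to the next peak of the same list, outside the region, was used to ask how crowded the surroundings were. Its median was 692 and 1281 bp for equal-rank regions in GFP-positive replicates 1 and 2, against 875 and 1704 bp for unequal-rank regions. In GFP-negative replicates 1 and 2 it was 516 and 710 bp for equal-rank regions, against 587 and 840 bp for unequal-rank regions. Equal-rank regions had the nearer neighbour in 4 of 4 libraries, with a mean difference of -201.8 ± 154 bp (SD, n = 4; two-sided exact sign-flip permutation test, p = 0.125, the smallest possible). Without GFP-positive replicate 2 it was -109 bp. With a mean percentile of 80 to under 90 the difference was -85.5 ± 63.8 bp, again in 4 of 4 libraries (SD, n = 4; exact permutation p = 0.125). At 80 to under 85 the distance was shorter in 2 of 4 libraries. At 90 to under 95 the difference was 21.4 ± 9.96 bp, with the farther neighbour for equal-rank regions in 4 of 4 libraries (SD, n = 4; exact permutation p = 0.125), over 2908 equal-rank and 396 unequal-rank regions. The distances also follow list length, as the shortest list had the largest distances in both sets. In unequal-rank regions the median distance was shorter at 90 to under 95 than at 80 to under 85 in each library. Because the sets differ in level, the difference over all levels is not independent of the rule. The sets still differed in level at 80 to under 90, as given for width.

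**Figure D3:**
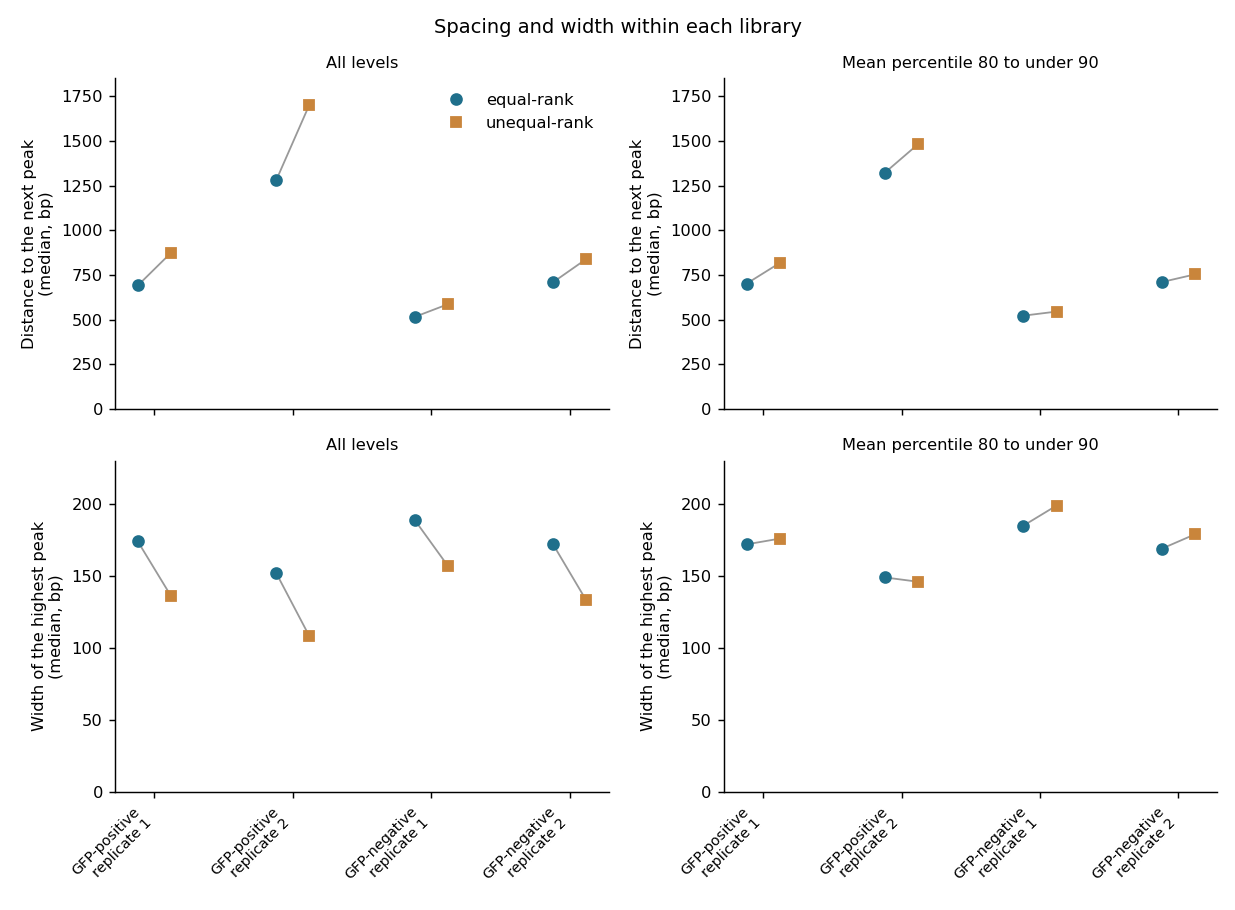
Median distance to the next peak of the same list (top, bp) and median width of the highest peak (bottom, bp) in each library (horizontal axis), for equal-rank regions (circles) and unequal-rank regions (squares), joined within a library. Over all levels (left) equal-rank regions had shorter distances and wider peaks in 4 of 4 libraries; at a mean percentile of 80 to under 90 (right) distances were shorter in 4 of 4 and peaks narrower in 3 of 4.

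Regions that set the populations apart lay near some equal-rank regions. GFP-positive-only regions held peaks in both lists of that group and in neither of the other, and GFP-negative-only regions the reverse. They numbered 10916 and 39844, which is 1.57% and 5.74% of all regions. The lists differ in length, and the part of list length in these numbers was not tested. A GFP-positive-only region lay within 10 kb of 18.4% of equal-rank and 16.2% of unequal-rank regions, with 16.5% for all regions in 4 lists. A GFP-negative-only region lay within 10 kb of 47.3% of equal-rank and 49.2% of unequal-rank regions, with 50.0% for all regions in 4 lists. Both shares were thus near those of all shared regions. The differences of 2.21 and -1.93 points come from all 4 lists at once, so they have no replicate error and were not tested. Neither kept its sign throughout. When a library was left out, the group-only regions of its group rested on 1 list, and the set of equal-rank regions changed too. Those values are therefore not the same measure. The GFP-positive-only difference was -0.781 points when GFP-positive replicate 2 was left out and 1.31 points when GFP-negative replicate 1 was. The GFP-negative-only difference was 0.378 and 0.0819 points without GFP-negative replicates 1 and 2, and -0.856 without GFP-positive replicate 2. At a mean percentile of 90 to under 95, with only 396 unequal-rank regions, the differences were -0.243 and 0.106 points, both small.

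Most equal-rank regions had a neighbour close by. Within 1000 bp, 77.6% had another region of any kind and 49.8% had a region found in 1 list only. The shares were 75.7% and 50.7% of unequal-rank regions, and 77.6% and 51.0% of all regions in 4 lists. A close neighbour of any kind was thus no more frequent than among all shared regions. A shared region with a percentile of 95 or higher lay within 1000 bp of 14.1% of equal-rank and 10.6% of unequal-rank regions. For all regions in 4 lists this share was 12.7%. Another equal-rank region lay within that distance of 4.99% of equal-rank and 3.12% of unequal-rank regions, with 3.68% for all regions in 4 lists. At a mean percentile of 80 to under 90, a strong region was near 14.4% of equal-rank and 12.8% of unequal-rank regions. The pairs of shares there were 5.02% and 3.73% for equal-rank regions, and 49.7% and 49.1% for regions found in 1 list only. At 90 to under 95 the direction for strong regions turned, with 14.7% and 15.4%, while for equal-rank regions it was 5.43% and 3.79%. The nearest region of any kind was a median of 293 bp from an equal-rank region and 329 bp from an unequal-rank region.

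Equal-rank regions were spread over all 25 chromosomes. Their number ranged from 237 on chromosome 25 to 488 on chromosome 5, and their density from 5.48 per Mb on chromosome 17 to 7.24 per Mb on chromosome 23. As a percent of tested regions, the share lay between 8.84% on chromosome 18 and 10.7% on chromosome 22, near the 9.78% over all chromosomes. On chromosome 4 the density was 6.88 per Mb in the first 25 Mb and 4.66 per Mb beyond, where 173 of 1901 tested regions (9.10%) were equal-rank, against 172 of 1746 (9.85%) in the first 25 Mb. The lower density there thus went with fewer tested regions per Mb.

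**Figure D4:**
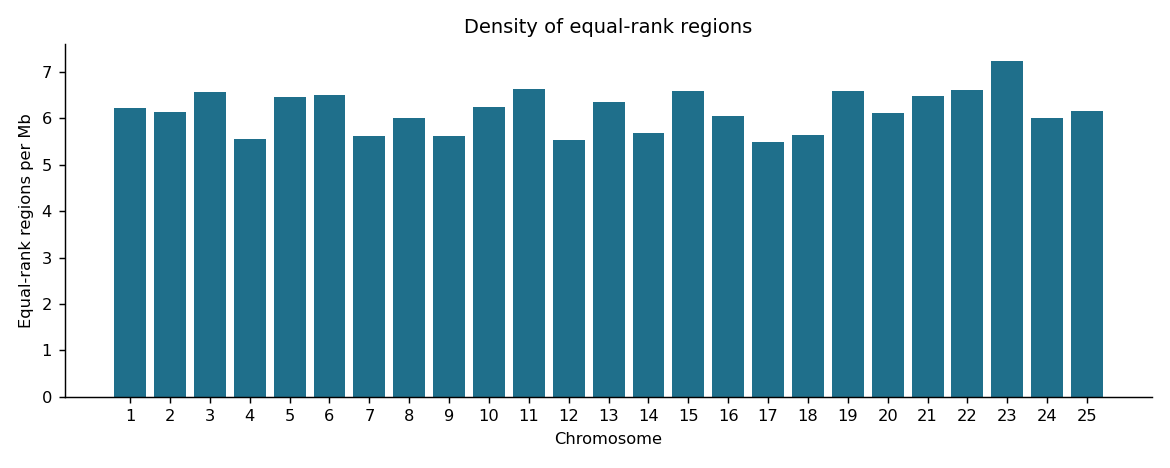
Equal-rank regions per Mb (vertical axis) on each of the 25 chromosomes (horizontal axis), with the last base of a peak taken as the length of the chromosome. All bars lie between 5.48 and 7.24 per Mb.

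Neighbouring equal-rank regions lay a median of 92390 bases apart. The longest stretch without one was 2118006 bases, on chromosome 8 from 35907318 to 38025323. Of 13579 tiles of 100 kb, 5714 (42.1%) held at least 1, with a mean of 0.614 per tile, and 45 tiles held 5 or more. The densest tile was chromosome 3 from 30300001 to 30400000, with 8 of 20 tested regions, followed by 4 tiles with 7 each, on chromosome 3 from 1900001 to 2000000, chromosome 4 from 4800001 to 4900000, chromosome 13 from 53900001 to 54000000 and chromosome 14 from 500001 to 600000. The 8 regions of the densest tile ranged from 174 to 329 bp in width and from 82.8 to 91.9 in mean percentile. They were spread through the tile, from 30307035 at the start of the first to 30399463 at the end of the last.

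The strongest equal-rank region, by the lowest of its 4 percentiles, was chromosome 8 from 49412814 to 49413003. It had a fold of 20.9 and 25.7 in GFP-positive replicates 1 and 2, and 20.5 and 26.5 in GFP-negative replicates 1 and 2. These are pileups of 40 and 54 tags in GFP-positive libraries, and 53 and 64 tags in GFP-negative libraries, at percentiles from 94.28 to 94.997. The groups overlapped in fold, and both replicate 2 libraries were above both replicate 1 libraries. Next came chromosome 22 from 6221470 to 6221640 (fold 21.4 and 23.9 in GFP-positive, 19.3 and 24.9 in GFP-negative libraries), chromosome 18 from 17151980 to 17152174 (21.4 and 24.8, and 18.2 and 22.9) and chromosome 3 from 25376508 to 25376847 (19.9 and 25.3, and 19.3 and 23.3). The same order of replicates was seen in all 4 regions, but the choice of regions by percentile sets it. In each list a percentile stands for 1 fold value. The highest fold of any equal-rank region was 22.4 and 26.2 in GFP-positive replicates 1 and 2. In GFP-negative replicates 1 and 2 it was 20.5 and 26.5.

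The most even region was chromosome 24 from 22647246 to 22647454, a stretch of 209 bp with a range of 0.520 points. Its percentiles were 89.82 and 89.96 in GFP-positive libraries, and 89.66 and 89.44 in GFP-negative libraries. Its fold values were 14.8 and 17.8 in GFP-positive libraries, and 12.1 and 15.5 in GFP-negative libraries, so the highest was 1.47 times the lowest. Even this region, with the smallest range of all, was thus not level in fold. Chromosome 25 from 8853376 to 8853546 had a range of 0.555 points at a mean percentile of 93.7, and chromosome 9 from 6526171 to 6526457, the fourth, had 0.627 points at 92.5. The third by this measure was the region on chromosome 22 named above.

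The weakest equal-rank regions lay at the other end of the lists. Chromosome 1 from 30511314 to 30511492 had a mean percentile of 4.85, with pileups of 5 and 8 tags in GFP-positive libraries, and 7 and 7 tags in GFP-negative libraries. Its 4 peaks had no base in common, since the region was joined from peaks that overlapped in turn. The same was true of the next weakest, on chromosomes 8, 7 and 13 (26829632 to 26829903, 44271496 to 44271634 and 38475797 to 38475982), whose pileups were 6 to 8 tags in all 4 libraries. The lowest pileup of any narrow shared region was 5 tags in GFP-positive replicate 1 and 6 tags in each of the other libraries, so these regions had nearly the lowest values there are.

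**Figure D5:**
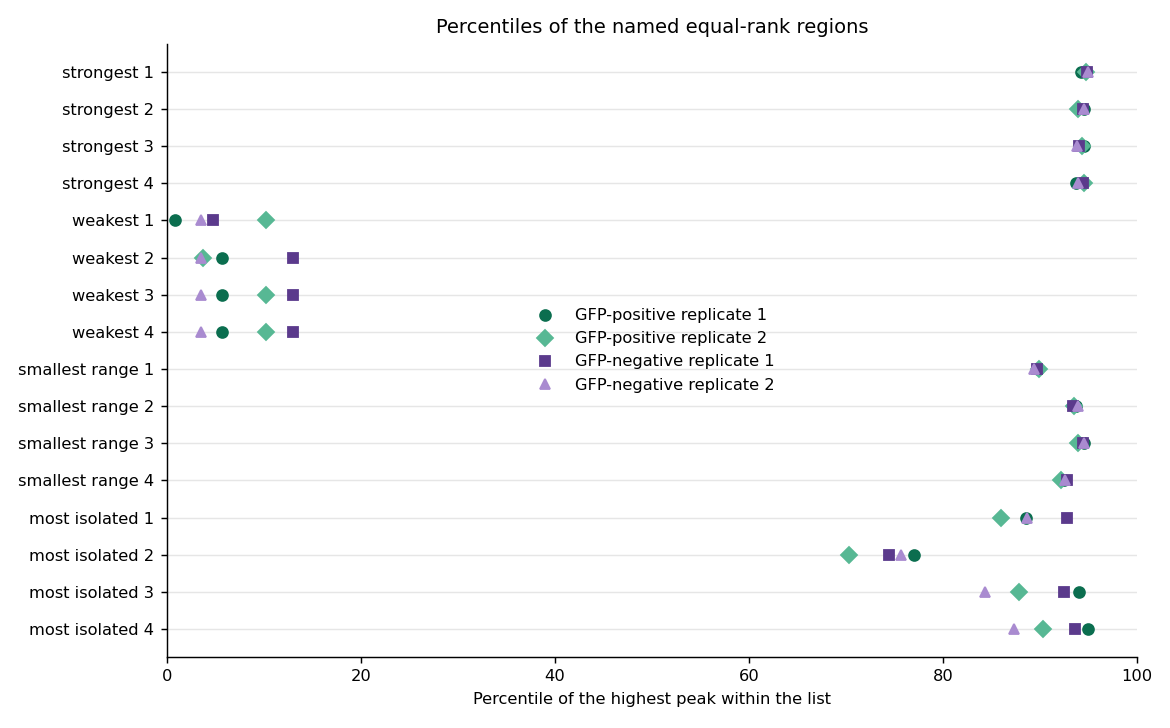
Percentile within the list (horizontal axis) in each of the 4 libraries (symbols) for the 4 strongest, 4 weakest, 4 most even and 4 most isolated equal-rank regions, from top to bottom; strongest 2 and smallest range 3 are the same region. The weakest lie at or under a percentile of 12.973 in all libraries, the others between 70.3 and 94.997.

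Some equal-rank regions stood alone. The most isolated, chromosome 21 from 14506038 to 14506200, was 15857 bases from the nearest other region on one side and 18815 on the other. It had a fold of 13.8 and 14.5 in GFP-positive replicates 1 and 2, and 15.9 and 14.7 in GFP-negative replicates 1 and 2. Each library thus had 1 peak of similar fold in a stretch without any other call. Chromosome 2 from 13080668 to 13080791 (nearest region 11505 bases away) was weaker, with a fold of 8.67 and 8.89 in GFP-positive, and 6.45 and 8.16 in GFP-negative libraries. Chromosome 14 from 26318590 to 26318894 and chromosome 1 from 44625815 to 44626125 lay 11257 and 11230 bases from the nearest region.

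One equal-rank region, chosen after its values were seen, lies in the neighbourhood of cldne, which encodes a claudin, a tight junction protein, and around which the study examined periderm elements. The stretch of chromosome 15 from 2600001 to 2700000 held 6 GFP-positive-only regions, 0 GFP-negative-only regions and 2 equal-rank regions. The GFP-positive-only regions that start at 2625543, 2629128, 2632015 and 2640034 lie within elements that the study itself showed at cldne. Over all 13579 tiles of 100 kb, the mean was 0.614 equal-rank regions per tile. Among all regions, 10916 (1.57%) were GFP-positive-only and 39844 (5.74%) were GFP-negative-only, and their numbers per tile were not computed. The stretch was picked for its gene and after values were seen, so its counts were not tested against these numbers. The first equal-rank region, 2620620 to 2620823, had percentiles of 92.1 and 94.7 in GFP-positive libraries, and 92.5 and 92.1 in GFP-negative libraries. Its fold was 17.3 and 25.7 in GFP-positive libraries, and 15.5 and 19.2 in GFP-negative libraries. The nearest GFP-positive-only regions were 3546 bases away at 2616954 to 2617073 (fold 7.14 and 5.15 in the GFP-positive libraries) and 4719 bases away at 2625543 to 2625842 (fold 12.7 and 9.83). A region with a strong peak in every library thus lay between regions with peaks in the GFP-positive libraries alone. These were not its nearest neighbours, as other merged regions lay 161 and 318 bases away on its 2 sides. The first equal-rank region had a higher fold than any of the 6 GFP-positive-only regions in both GFP-positive libraries. The second equal-rank region, 2694324 to 2694414, did not. Its fold was 16.8 and 12.6 in GFP-positive libraries, and 14.4 and 13.1 in GFP-negative libraries. In GFP-positive replicate 2 it was below the GFP-positive-only regions that start at 2632015 (fold 16.9) and 2640034 (fold 15.0).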

How the data were processed

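ATAC-seq was done on sorted cells in 2 GFP-positive and 2 GFP-negative libraries, grouped and numbered by the labels. The authors trimmed reads, mapped them with Bowtie 2, removed duplicates, kept fragments under 100 bp and called peaks with MACS2 2.1.1 in each library without a local background (genome size 1400000000 bp, tag extension 54 bp). Replicates were not pooled. Each deposited list gives chromosome, start, end and an unnamed value, read as the ratio that the authors' peak caller gives, the fold enrichment over a constant background. Every value was a whole multiple of 1 step per list within 0.02 steps. The pileup is the number of steps minus 1.

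The methods name danRer7 and the processing notes danRer10. Positions are those of the lists, whose last peak on chromosome 1 ends at 60348296, a position within that chromosome in danRer7 and past its end in danRer10. The smallest end minus start was 53 in all lists, 1 under the tag extension, so starts were read as counted from 1. Zero-based starts gave the same 8339 regions.

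Percentiles used average ranks. The highest peak of a list stood for a region. Medians were compared within libraries by a two-sided exact sign-flip permutation test over 4 libraries. Libraries, not regions, were the units of the test. Both fractions came from the same embryos of 2 incrosses, which the labels do not tie to the replicate numbers, so the 4 libraries are not independent samples and a test by incross was not made. The rule for named regions was the 4 strongest, weakest, most even and most isolated, the densest tiles, and those beside each limit. Members, lists and tests were chosen with earlier results of these data known. The study's differential test needs reads, which were not used here. Steps were tested on simulated data. The software was scipy 1.17.1, pandas 2.3.3 and numpy 2.4.6 under Python 3.11.15, with figures by matplotlib 3.10.9.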

Additional observations from a re-analysis of the deposited data

How the results depend on the processing

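Zero-based starts and the levels 80 to 85, 85 to 90 and 90 to 95 were chosen after seeing the data. The number of equal-rank regions stayed within 1.5 times of 8339 in 6 of 15 settings and moved in 9. It was 13126 with equal numbers of the strongest peaks, 5286 with the upper 50% of each list, 1913 and 24741 with ranges of at most 5 and 20 points, and 2752 with percentiles under 90. Leaving out a library, so that 3 lists have to match in place of 4, gave 13531 to 28934: 14147 and 28934 without GFP-positive replicates 1 and 2, and 16670 and 13531 without GFP-negative replicates 1 and 2. Of the 8339 regions, 2920 (35.0%) met the rule again with equal numbers of peaks, and with the upper 50%, 1998 (24.0%). Percentiles were taken anew within the cut lists, so the limits of the rule there fall at other places of the full lists. Distances in cut lists run to the next peak that was kept.

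The difference in peak width kept its sign in 15 of 19 settings and was -6.25, -11.1, -11.2 and -3.88 bp at mean percentiles of 80 to 90, 80 to 85, 85 to 90 and 90 to 95. The difference in distance kept its sign in 18 of 19 and was -396.2 ± 18.8 bp with equal numbers of the strongest peaks, -552.6 ± 201 bp with the upper 50%, -123.8 ± 121 bp with percentiles under 90 (SD over libraries), -82.6 and -45.5 bp at 80 to 85 and 85 to 90, and 21.4 bp at 90 to 95. Without single libraries these were 33.0 to 46.2 bp and -201.8 to -109 bp. For GFP-positive-only neighbours, the difference was 0.385 points with equal numbers of peaks, 0.952 with the upper 50%, 3.23 at 80 to 85 and -0.243 at 90 to 95. For GFP-negative-only neighbours it was -0.721 with equal numbers and 0.106 at 90 to 95. Without single libraries they ranged from -0.781 to 2.53 and from -2.06 to 0.378 points, where group-only regions of 1 group rest on 1 list. The causes were not tested.

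No paired analysis was possible because replicate numbers pair libraries at most between the groups, where the rule used the values and no test was made. The width and distance tests already take the difference between both sets within each library.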
